A study of Homo sapiens with 30 samples.

Results

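HLA class II molecules present peptides to CD4+ T cells, and 10 genes that make them were followed in 2 human glioblastoma cell lines under the cytokine interferon-γ (IFN-γ). The genes were CIITA, CD74, HLA-DRA, HLA-DRB1, HLA-DPA1, HLA-DPB1, HLA-DQA1, HLA-DQB1, HLA-DMA and HLA-DMB, taken by symbol from the 61471 genes of each expression table, and all 10 were found in both tables. U87 and U251 are established lines grown from human gliomas. They were compared as untreated cells (Untreated), after 3, 14 or 28 days of continuous IFN-γ (D3, D14 and D28), and on day 28 when the cytokine had been taken away on day 14 (D28WO). Each line is labelled as wild type, with no engineered allele, and all cells of a line grew in the same serum-containing medium. The labels give the dose as 1 µg/mL in the protocol and as 1 µL/mL for the samples, and the study's methods state a lower one. The labels collect the untreated cells on day 3, whereas the methods place them at the start, so they do not follow the cells to day 28. The methods name both lines as prone to misidentification and give no identity check by the laboratory.

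Class II genes are switched on together by the coactivator CIITA. It does not bind DNA itself but docks on a complex of RFX, CREB and NF-Y factors at a short promoter module with an X box and a Y box. Professional antigen-presenting cells make CIITA constantly, while most other cells make it only when IFN-γ signals through its receptor, the kinases JAK1 and JAK2 and the factor IRF1. The DR, DP and DQ molecules are pairs of an alpha chain (HLA-DRA, HLA-DPA1, HLA-DQA1) and a beta chain (HLA-DRB1, HLA-DPB1, HLA-DQB1). CD74, the invariant chain, blocks their groove until the endosome, where HLA-DM (HLA-DMA with HLA-DMB) exchanges its last fragment for a peptide.

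Of the 10 genes, 8 lie within 650 kb of chromosome 6, in the class II region of the major histocompatibility complex (GRCh38, GENCODE). HLA-DRA is at chr6:32439878-32445046 on the plus strand, HLA-DRB1 at chr6:32577902-32589848 (minus), HLA-DQA1 at chr6:32628179-32647062 (plus) and HLA-DQB1 at chr6:32659467-32668383 (minus). HLA-DMB is at chr6:32934629-32941028 and HLA-DMA at chr6:32948613-32969094, both on the minus strand. HLA-DPA1 (chr6:33064569-33080775, minus) and HLA-DPB1 (chr6:33075990-33089696, plus) overlap head to head by 4786 bases. CD74 is on another chromosome, at chr5:150401637-150412969 (minus), as is CIITA, at chr16:10866222-10943021 (plus). All 10 are protein-coding.

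The promoters are shown because these genes moved together. RefSeq promoters (GRCh38.p14, 250 bases before to 50 after the start) were at hand for 8 of the 10 genes. Each run below covers the 135 bases from 150 to 16 before the start, 5′ to 3′ on the gene's strand. Capitals mark every ACNGATG, the core letters of the X box, and every ATTGG, the CCAAT core of the Y box, on either strand. These are reference sequences, not alleles of the 2 lines.
HLA-DRB1 (chr6:32589864-32589998, minus): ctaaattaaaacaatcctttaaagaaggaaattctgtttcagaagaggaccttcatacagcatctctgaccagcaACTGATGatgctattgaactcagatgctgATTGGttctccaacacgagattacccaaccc
HLA-DQB1 (chr6:32666673-32666807, minus): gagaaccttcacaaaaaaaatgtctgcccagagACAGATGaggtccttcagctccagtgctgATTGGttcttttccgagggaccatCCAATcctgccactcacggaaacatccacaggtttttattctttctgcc
HLA-DMA (chr6:32953113-32953247, minus): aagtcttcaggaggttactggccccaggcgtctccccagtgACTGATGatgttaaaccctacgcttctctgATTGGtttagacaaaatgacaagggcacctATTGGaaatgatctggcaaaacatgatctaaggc
HLA-DMB (chr6:32941044-32941178, minus): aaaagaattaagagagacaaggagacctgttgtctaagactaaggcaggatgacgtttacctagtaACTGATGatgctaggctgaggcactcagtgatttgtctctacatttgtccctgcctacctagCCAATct
HLA-DQA1 (chr6:32637256-32637390, plus): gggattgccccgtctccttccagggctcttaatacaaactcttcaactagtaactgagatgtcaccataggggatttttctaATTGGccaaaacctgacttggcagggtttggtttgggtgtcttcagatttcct
HLA-DPB1 (chr6:33075840-33075974, plus): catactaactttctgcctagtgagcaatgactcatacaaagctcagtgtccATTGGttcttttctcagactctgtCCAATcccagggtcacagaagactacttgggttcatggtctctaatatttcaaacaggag
CD74 (chr5:150412926-150413060, minus): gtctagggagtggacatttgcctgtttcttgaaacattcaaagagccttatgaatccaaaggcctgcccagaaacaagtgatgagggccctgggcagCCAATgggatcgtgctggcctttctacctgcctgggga

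In HLA-DRB1, HLA-DQB1 and HLA-DMA the letters ACNGATG were followed on the same strand by ATTGG, with 29, 29 and 30 bases between the first letters of the 2 cores. That order, with 20 to 40 bases between the first letters, occurred in 49 of all 35116 promoters of this length (0.14%). ACNGATG was in 7.65% of them and ATTGG in 34.6%, counting the 2.78% that held both. Of the 8 genes with a promoter entry, 5 held ACNGATG somewhere in the 300 bases and 7 held ATTGG, on either strand. CIITA and HLA-DRA have no entry. In CD74 the only ACNGATG lay on the opposite strand, upstream of the run shown. HLA-DMB had the X core and, farther downstream, ATTGG on the opposite strand. HLA-DQA1 and HLA-DPB1 held ATTGG without ACNGATG, and HLA-DPA1, with 2 entries, held neither and is not shown. A match of letters is a description and not a site, and no match says only that these letters were not in this window.

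RNA was measured in 30 libraries, 3 per group and line, which the labels call biological replicates. Values are TPM, in which each gene's reads are divided by its length and every library is scaled to the same total, so levels of different genes can be compared. TPM keeps no sequencing depth, and the methods state only a minimum for it, so no detection limit is given for a gene listed at 0. In U87, 2 columns share a name and were used in no step, which left 13 U87 libraries, with n = 2 at D3 and D14 (replicates 2 and 3) and n = 3 in the other groups. All 15 libraries of U251 were used. Genes above 0 numbered 24223 to 28649 per U87 library and 24450 to 30246 per U251 library. Tests were run with limma on log2(TPM + 1) over 22918 genes in U87 and 23667 in U251, and all 10 genes were among them in both lines. A gene was called when its p, adjusted over all tested genes by Benjamini-Hochberg, was under 0.05 and its log2 fold change was above 1 or below -1. A log2 fold change here is on the log2(TPM + 1) scale, which understates the change of low genes. The lines were never tested against each other, because their tables were normalized separately.

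The cell types behind the labels were checked first. VIM and CD44 were abundant in both lines (1307 ± 132 and 686 ± 40.6 TPM in untreated U87, 1141 ± 21.0 and 840 ± 22.8 TPM in untreated U251; mean ± SD, n = 3). GFAP and SOX2 were at 1258 ± 46.3 and 159 ± 1.20 TPM in untreated U251, but at 4.84 ± 2.32 and 0.219 ± 0.207 TPM in untreated U87, so these 2 glial markers were low in untreated U87. GFAP was called higher in U87 at D28 (14.2 ± 5.70 TPM) and D28WO, and lower in U251 at D3, D28 and D28WO (243 ± 18.2 TPM at D28). Of 6 glioma markers in U251, 3 were called lower at D3 (GFAP, NES and S100B), beside 4.55% of all genes tested, and their part in the results was not tested. Professional antigen-presenting cells, which are leukocytes, carry class II by nature, so 12 leukocyte markers were summed. In U87 the sum ranged from 57.6 to 67.3 TPM in Untreated and from 51.4 to 71.7, 66.18 to 66.2, 75.5 to 90.5 and 23.0 to 41.6 TPM in the treated groups D3, D14, D28 and D28WO. In U251 the same ranges were 10.62 to 17.0, 11.7 to 13.6, 27.1 to 31.1, 16.3 to 21.3 and 6.56 to 8.37 TPM, so in both lines the sum was lowest after withdrawal. In U87 the largest share was CSF1R, at 55.2 ± 6.85 TPM in Untreated and 16.9 ± 5.89 TPM at D28WO. TYROBP was listed at 0 in every library, and PTPRC, MS4A1, CD3E and AIF1 did not exceed 1.47 TPM in any library of either line. Some markers moved with treatment. CD53 was called higher than Untreated at all 4 points in U87, from 4.13 ± 0.999 TPM in Untreated to 22.9 ± 2.23 TPM at D28, and in U251 at D14 and D28, from 0.119 ± 0.205 to 3.69 ± 0.461 TPM at D28. In U251 CD14 was called higher at all 4 points, from 0.569 ± 0.602 TPM to 4.51 ± 1.32 TPM at D3, and LAPTM5 higher at D14 (8.52 ± 1.89 to 18.9 ± 2.22 TPM) but lower at D3 and D28WO. The part of these markers in the results was not tested.

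A feature of the labels touches all results. In both lines the libraries labelled D14, collected with IFN-γ present, held less RNA of every one of the 10 genes than the libraries labelled D28WO, collected 14 days after its removal. In U87 the log2 fold change of D28WO against D14 ran from 0.48 to 2.40 over the 10 genes, and in U251 from 0.98 to 3.60. In U251 the call of HLA-DPA1 was lost with quantile normalization (0.97) and that of HLA-DPB1 with a pseudocount of 0.1 (limma, adjusted p = 0.0523), while HLA-DQA1 gained a call under both (1.23 and 2.36) and under median-ratio size factors (1.00). The labels were used as given. The counts of members called in the comparisons without D14 were the same when the D14 libraries were left out of the fit, an alternative chosen after seeing the data.

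CIITA, the master coactivator, was already expressed in untreated U87 cells. Its TPM values were 50.8, 47.1 and 32.9 in Untreated, 155 and 152 at D3, 49.7 and 50.9 at D14, 175, 174 and 175 at D28, and 191, 191 and 192 at D28WO. The D14 libraries lay at the top of the untreated range, and the D28WO libraries were the highest of all. The log2 fold change from Untreated was 2.00 ± 0.12 (SE) at D28 and 2.14 ± 0.12 at D28WO (limma, adjusted p = 6.9e-07 and 2.5e-07), against 0.23 ± 0.14 at D14 (adjusted p = 0.349). From D3 to D14 CIITA fell by 1.59 ± 0.15 on the log2 scale (adjusted p = 6.3e-05).

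In U251 CIITA was close to silent before treatment. Its TPM values were 2.65, 1.76 and 1.21 in Untreated, 137, 126 and 128 at D3, 8.10, 7.48 and 6.85 at D14, 126, 126 and 139 at D28, and 109, 101 and 95.9 at D28WO. All treated libraries lay above the untreated ones, with those of D14 nearest. CIITA fell by 3.96 ± 0.14 on the log2 scale from D3 to D14 and rose by 3.96 ± 0.14 from D14 to D28 (limma, adjusted p = 9.3e-10 and 6.4e-10). In bulk RNA, fewer expressing cells and less RNA per cell cannot be told apart, here and in all results that follow. The plot by library gives the course of the other members, which were all lower at D14 than at D3 and D28.

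**Figure D1:**
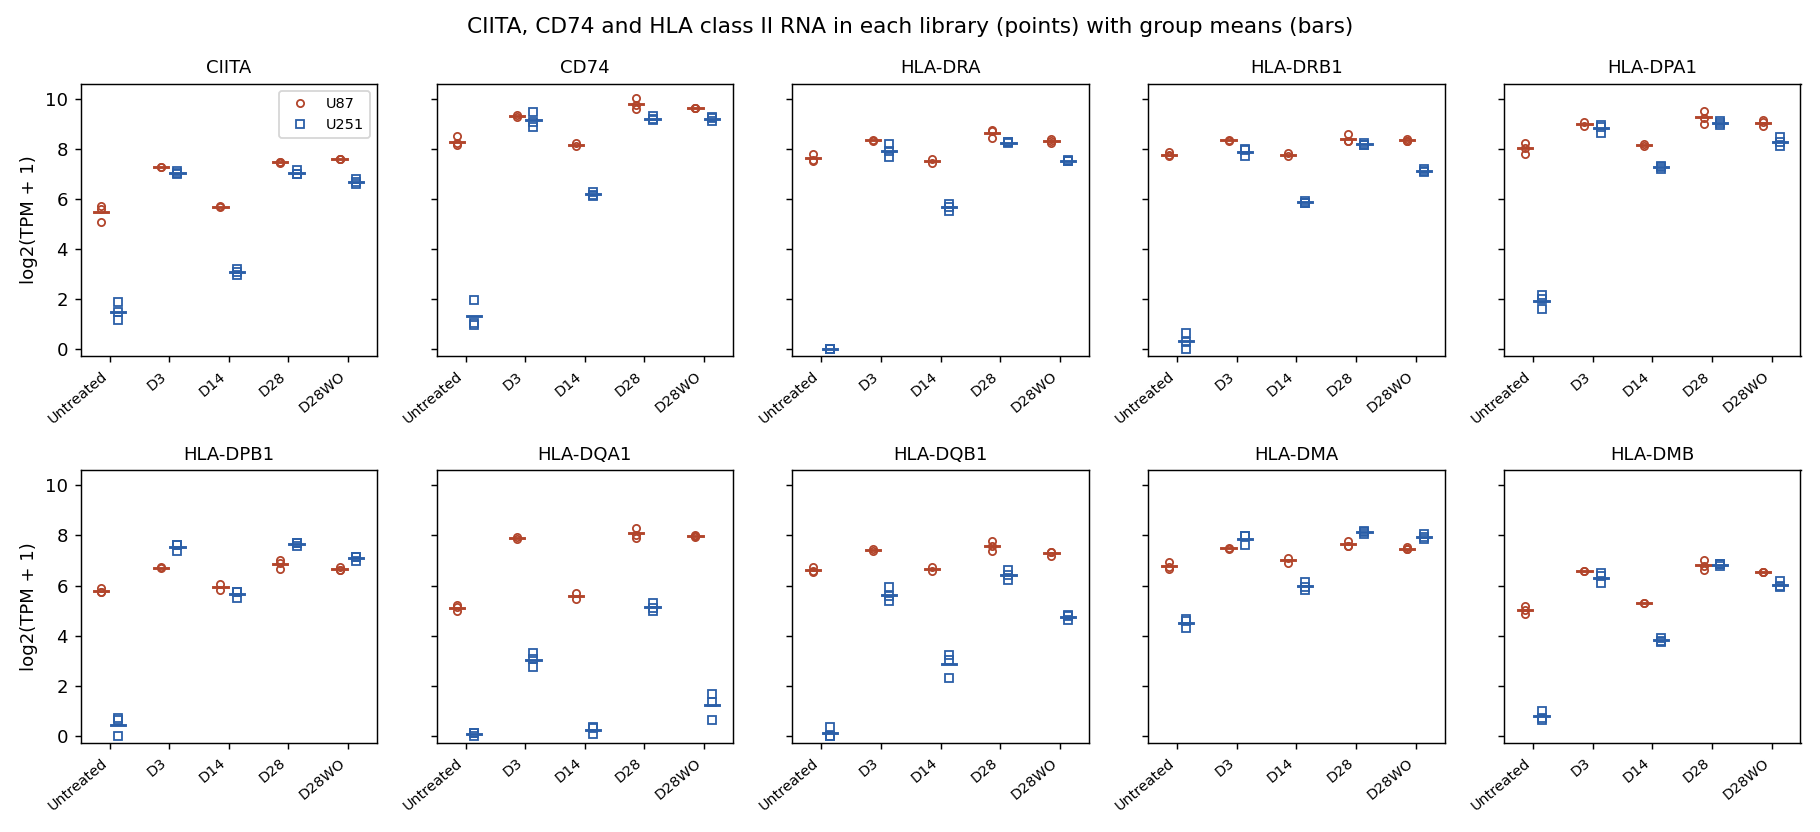
Each panel plots 1 gene as log2(TPM + 1) on the vertical axis against the 5 groups, with a point per library and a bar at the group mean, circles for U87 and squares for U251. All 10 genes were lower at D14 than at D3, and untreated U251 libraries held at most 3.41 TPM of every gene except HLA-DMA, while untreated U87 libraries held 28.0 to 361 TPM.

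CD74, the chaperone of all 3 class II pairs, had the highest mean of the 10 genes in every U87 group, although its libraries overlapped those of HLA-DPA1 in Untreated and at D14. It stood at 281, 296 and 361 TPM in untreated U87 cells, 651 and 611 TPM at D3, 297 and 274 TPM at D14, 1029.96, 773 and 863 TPM at D28, and 780.2, 788 and 782 TPM at D28WO. The D14 libraries overlapped the untreated ones, and every library of D3, D28 and D28WO lay above both. Its log2 fold change was 1.501 ± 0.11 at D28 and 1.33 ± 0.11 at D28WO against Untreated (limma, adjusted p = 2.3e-06 and 3.2e-06). The call at D3 (1.02 ± 0.12, adjusted p = 2.0e-04) sat at the fold limit. It was lost without Untreated replicate 1 (0.94), without Untreated replicate 2 (0.98) or without D3 replicate 2 (0.97), where the lone D3 library was assumed to vary like the other groups. Median-ratio size factors also ended it (0.82).

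In U251 CD74 went from 1.04, 0.942 and 2.88 TPM in Untreated to 469, 711 and 540.1 TPM at D3, 70.4, 75.9 and 67.4 TPM at D14, 561, 631 and 575 TPM at D28, and 549, 599 and 609.5 TPM at D28WO. D28 and D28WO overlapped, with a log2 fold change of -0.0073 ± 0.21 between them (limma, adjusted p = 0.994). The log2 fold change from Untreated was 4.86 ± 0.21 at D14, and 7.83, 7.89 and 7.88 at D3, D28 and D28WO (limma, adjusted p at most 2.1e-09). Among the 10 genes CD74 had the smallest difference between D28 and D28WO in U251.

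HLA-DRA and HLA-DRB1 encode the chains of HLA-DR, the most widely expressed class II molecule. In U87 HLA-DRA was at 185, 183 and 219 TPM in Untreated, 326 and 316 at D3, 192 and 171 at D14, 428, 344 and 416 at D28, and 302, 329.99 and 315 at D28WO. D3, D28 and D28WO lay above all untreated libraries and D14 overlapped them. Only its D28 change passed both limits (1.01 ± 0.094, adjusted p = 2.1e-05), and it fell below the fold limit when Untreated replicate 1 (0.98), Untreated replicate 2 (0.97), D28 replicate 1 (0.95) or D28 replicate 3 (0.97) was left out, and with median-ratio size factors (0.82). HLA-DRB1 changed least of the 10 genes in U87 at D28, from 217 ± 12.5 TPM (SD) to 339 ± 39.9 TPM, a log2 fold change of 0.64 ± 0.079 (limma, adjusted p = 2.1e-04, under the fold limit).

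In U251 HLA-DRA was listed at 0 in all 3 untreated libraries, so no fold is given for it. It was at 201, 293 and 238 TPM at D3, 44.8, 53.7 and 50.4 at D14, 296, 304 and 308 at D28, and 179, 186 and 183 at D28WO. The 4 treated groups did not overlap, in the order D14, D28WO, D3 and D28. HLA-DRB1 was listed at 0.218, 0 and 0.555 TPM in Untreated and at 236 ± 23.8, 57.2 ± 1.21, 289.9 ± 5.84 and 138 ± 5.37 TPM in the later groups. After withdrawal both were lower than at D28, with a log2 fold change of -1.06 ± 0.12 for HLA-DRB1 and -0.73 ± 0.11 for HLA-DRA (limma, adjusted p = 2.6e-05 and 2.0e-04). Only HLA-DRB1 of this pair was called. Its call was lost with a pseudocount of 0.1 (adjusted p = 0.0870) and with median-ratio size factors (log2 fold change -0.97).

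HLA-DPA1 and HLA-DPB1 encode the chains of HLA-DP. HLA-DPA1 was the second most abundant of the 10 genes in untreated U87 cells, at 261, 222 and 295 TPM, and stood at 478 and 531 TPM at D3, 271 and 293 at D14, 603, 508 and 729 at D28, and 482, 559 and 541 at D28WO. The D14 libraries again lay among the untreated ones and all others above them. Its change was called at D28 (1.23 ± 0.13, limma, adjusted p = 5.7e-05) and at D28WO (1.03 ± 0.13, adjusted p = 7.8e-05). The latter fell to 0.92 without Untreated replicate 2, to 0.98 without D28WO replicate 2 and to 0.79 with median-ratio size factors. At D3 its change of 0.96 rose past the limit without Untreated replicate 3 (1.06) or without D3 replicate 2 (1.04), and with quantile normalization (1.20). HLA-DPB1 was at 54.7 ± 3.09 TPM (SD) in untreated cells and 116 ± 13.6 TPM at D28, a log2 fold change of 1.07 ± 0.094 (adjusted p = 1.4e-05), which was 0.996 without D28 replicate 3, 0.88 with median-ratio size factors and 0.97 with quantile normalization.

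In U251 HLA-DPA1 kept the highest level of the 10 genes at D14. It was at 3.02, 3.41 and 2.00 TPM in Untreated, 399.7, 489.9 and 465 at D3, 158, 155 and 146 at D14, 557, 488 and 523 at D28, and 272, 352 and 308 at D28WO. Its fall from D3 to D14, -1.55 ± 0.13, was the smallest of the 10 (limma, adjusted p = 1.5e-06). HLA-DPB1 went from at most 0.618 TPM in Untreated to 186 ± 19.4, 49.8 ± 4.74, 201 ± 7.89 and 135 ± 9.33 TPM (SD) in the 4 treated groups. The 2 genes overlap on opposite strands, and neither the labels nor the methods state that counting used strand, so reads of the shared part cannot be assigned with certainty.

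HLA-DQA1, the alpha chain of HLA-DQ, had the largest change of the 10 genes in U87 and the least even course in U251. In U87 it was at 30.4, 36.6 and 34.0 TPM in Untreated, 233 and 243 at D3, 51.1 and 42.7 at D14, 239, 258 and 318 at D28, and 242, 261 and 250.9 at D28WO. No treated library overlapped the untreated ones, with D14 nearest. The log2 fold changes were 2.79 ± 0.12, 0.46 ± 0.12, 2.97 ± 0.11 and 2.87 ± 0.11 in the 4 treated groups (limma, adjusted p = 9.0e-08, 0.0491, 1.3e-08 and 1.0e-08). Its partner HLA-DQB1 moved far less, from 97.2 ± 7.28 TPM (SD) in Untreated to 171 ± 5.27, 100.01 ± 8.00, 190.3 ± 26.0 and 156 ± 8.70 TPM in the same order, and none of these changes passed the fold limit (0.96 ± 0.098 at D28). Without Untreated replicate 3 or without D28 replicate 2, HLA-DQB1 passed it at D28 (1.01 and 1.05).

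In U251 HLA-DQA1 was at 0.0796, 0.0877 and 0 TPM in Untreated, 7.42, 5.69 and 8.89 at D3, 0.240, 0.0470 and 0.258 at D14, 33.2, 38.6 and 30.4 at D28, and 1.57, 2.15 and 0.544 at D28WO. It was the only member whose D14 libraries overlapped the untreated ones, and its D28 libraries lay far above those of D28WO. The change from Untreated was 2.96 ± 0.26 at D3 and 5.05 ± 0.26 at D28 (limma, adjusted p = 7.3e-07 and 3.2e-09). Withdrawal went with a log2 fold change of -3.91 ± 0.26 against D28 (adjusted p = 2.0e-07), and the call of D28WO against Untreated (1.14 ± 0.26, adjusted p = 0.00433) was lost without D28WO replicate 2 (0.92). HLA-DQB1 was at 0, 0 and 0.290 TPM in Untreated and later at 48.9 ± 9.76, 6.53 ± 2.25, 85.0 ± 11.4 and 25.9 ± 2.00 TPM (SD), with -1.67 ± 0.22 from D28 to D28WO (adjusted p = 6.9e-05).

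**Figure D2:**
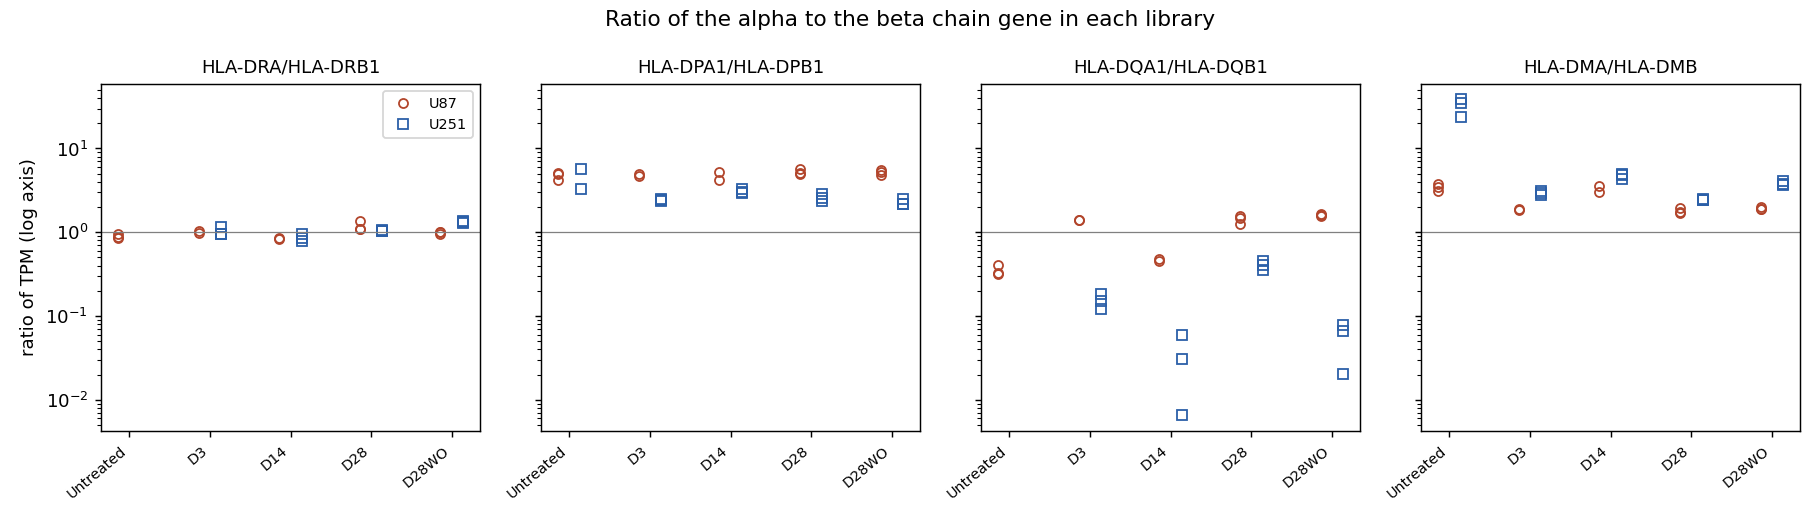
Each panel plots the ratio of alpha to beta chain TPM in each library on a log axis against the 5 groups, circles for U87 and squares for U251, leaving out libraries with either gene listed at 0. The HLA-DQA1/HLA-DQB1 panel spreads from 0.0065 to 1.66, while HLA-DRA/HLA-DRB1 stays between 0.794 and 1.35.

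The balance of the chains was read as the ratio of their TPM within a library, with no test. In U87 the HLA-DQA1/HLA-DQB1 ratio was 0.348 ± 0.0466 (SD) in Untreated and 0.468 ± 0.0224 at D14, but 1.39 ± 0.00099 at D3, 1.43 ± 0.151 at D28 and 1.62 ± 0.0403 at D28WO. HLA-DQA1 thus passed from the lower to the higher of the pair, and the groups with the low and the high ratio did not overlap. In U251 the ratio was 0.403 ± 0.0478 at D28 and lower in the other treated groups (0.151 ± 0.0301 at D3, 0.0325 ± 0.0268 at D14 and 0.0551 ± 0.0305 at D28WO), so HLA-DQA1 stayed the lower of the pair in every treated library. The HLA-DRA/HLA-DRB1 ratio moved little, from 0.899 ± 0.0428 in Untreated to 1.17 ± 0.152 at D28 in U87, and between 0.868 ± 0.0774 at D14 and 1.32 ± 0.0300 at D28WO in U251. The HLA-DPA1/HLA-DPB1 ratio was 4.71 to 5.26 in the group means of U87 and 2.30 to 3.08 in those of treated U251. Class II genes are among the most polymorphic of the genome, and reads of an allele far from the reference can be lost, which bears on every level compared between genes or lines.

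HLA-DMA and HLA-DMB encode the peptide editor HLA-DM. HLA-DMA was the only 1 of the 10 genes with a clear level in untreated U251 cells, at 24.5, 23.1 and 18.7 TPM. It reached 198, 252 and 255 TPM at D3, 68.8, 54.8 and 61.2 at D14, 265, 286 and 283 at D28, and 248, 263 and 231 at D28WO. All treated libraries lay above the untreated ones, and the D28WO libraries lay just below those of D28 (-0.17 ± 0.11, limma, adjusted p = 0.300). HLA-DMB started at 0.716 ± 0.230 TPM (SD) and stood at 79.4 ± 11.6, 13.1 ± 0.918, 113 ± 3.81 and 64.6 ± 5.36 TPM, with -0.80 ± 0.12 from D28 to D28WO (adjusted p = 2.5e-04).

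In U87 HLA-DMB also moved more than HLA-DMA. HLA-DMB was at 31.7, 34.9 and 28.0 TPM in Untreated, 94.4 and 95.4 at D3, 38.8 and 38.6 at D14, 108, 98.7 and 127 at D28, and 93.1, 92.2 and 91.2 at D28WO. It was called higher at D3, D28 and D28WO (1.57 ± 0.11, 1.79 ± 0.099 and 1.52 ± 0.099; limma, adjusted p = 3.2e-06, 3.4e-07 and 6.2e-07). HLA-DMA went from 109 ± 12.1 TPM to 178 ± 2.88, 127 ± 13.6, 200.1 ± 14.3 and 177 ± 6.32 TPM (SD) at D3, D14, D28 and D28WO and stayed under the fold limit throughout. The HLA-DMA/HLA-DMB ratio was 3.47 ± 0.311 in Untreated and 1.81 ± 0.129 at D28 in U87, and 32.4 ± 7.76 and 2.45 ± 0.0350 in U251. In untreated U251 the ratio divides by HLA-DMB at only 0.536 to 0.975 TPM, so it is uncertain there. A gene model on the same strand (ENSG00000248993) overlaps HLA-DMA by 4510 and HLA-DMB by 3665 bases, and could share reads with them.

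Counted over the 10 genes with both limits, fewer members were called higher than Untreated in U87 than in U251, and the lines were not tested against each other. In U87 the members called higher than Untreated were 4 at D3 (CIITA, CD74, HLA-DQA1 and HLA-DMB), 0 at D14, 7 at D28 and 5 at D28WO, with limma. Of all genes tested, 5.85%, 1.89%, 6.77% and 12.8% were called higher in these comparisons. At D3 and D14 n was 2, so leaving out 1 of those libraries leaves 1, and counts over all genes from such fits are not given. With 1 untreated library left out, the 1340 genes at D3 ran from 907 to 1344 and the 433 at D14 from 170 to 446. By the adjusted p alone, 10 of 10 were higher at D3, D28 and D28WO and 1 at D14 (HLA-DQA1), where 3 had an unadjusted p under 0.05. The share of all genes that passed the adjusted p alone was not counted, so these counts have no background beside them. The members' median log2 fold change was 0.94, 0.13, 1.15 and 0.95, beside 0.20, 0.15, 0.19 and 0.25 for all genes, so at D14 it was close to that of all genes. Quantile normalization moved the median of all genes to -0.023, -0.0063, -0.026 and -0.019, and with it the members' median was 1.04, 0.067, 1.28 and 1.11. With median-ratio size factors the median of all genes was 0.040, 0.00036, 0.036 and 0.068, and the members' median was lower than reported at every point, at 0.75, -0.046, 0.96 and 0.71.

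**Figure D3:**
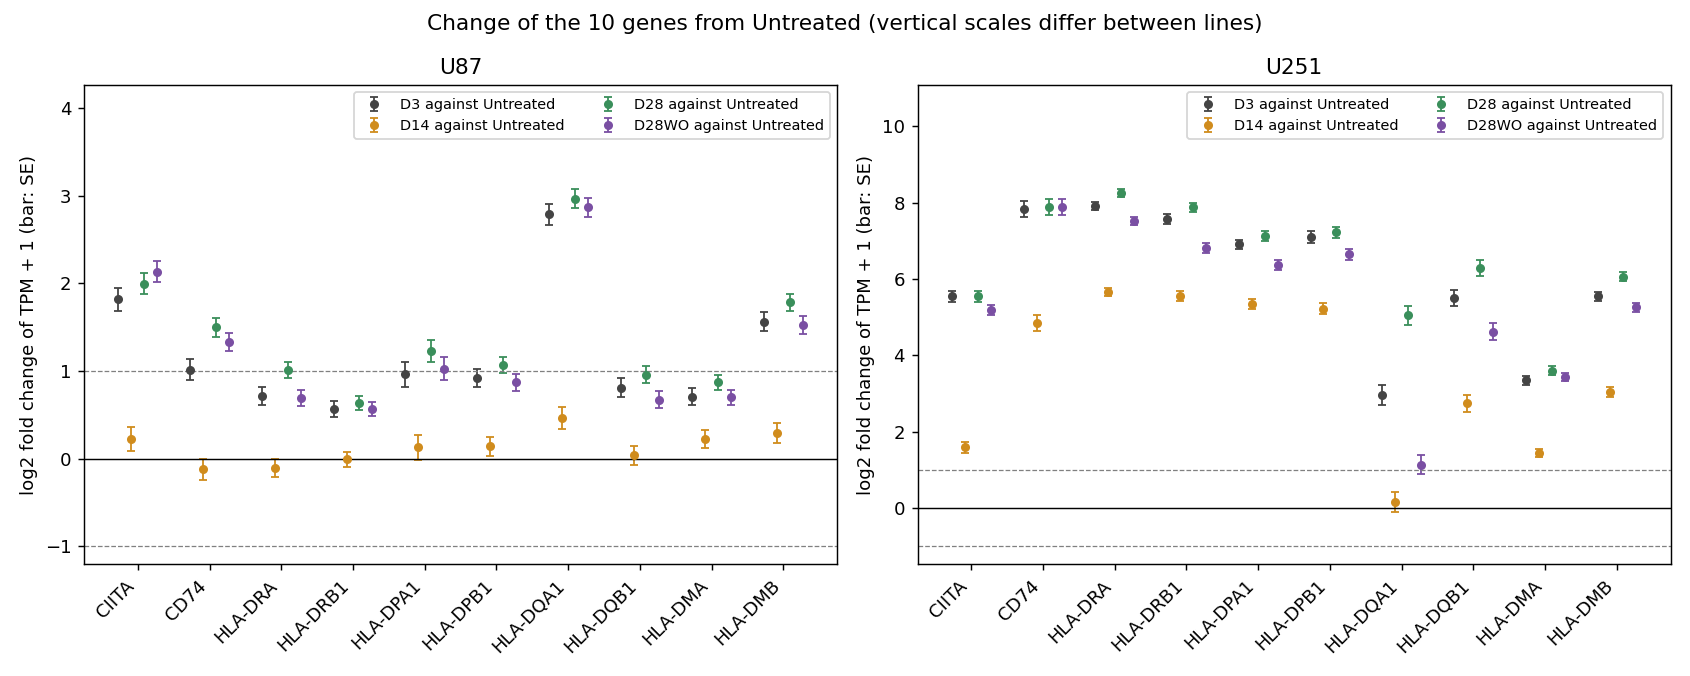
The log2 fold change of TPM + 1 against Untreated is plotted with its SE for each of the 10 genes at D3, D14, D28 and D28WO, with U87 on the left and U251 on the right on different scales and dashed lines at -1 and 1. In U87 only HLA-DQA1 passed 2.5, whereas in U251 the D3 values ran from 2.96 to 7.83 apart from HLA-DRA, whose points depend on the pseudocount because it was listed at 0 in Untreated.

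In U251 all 10 members were called higher than Untreated at D3, D28 and D28WO, and 9 at D14, where HLA-DQA1 was the one not called (0.16 ± 0.26, limma, adjusted p = 0.719). Of all genes tested, 9.72%, 4.72%, 11.9% and 4.07% were called higher in the 4 comparisons. The median log2 fold change of the members was 6.23, 3.95, 6.71 and 5.81, against 0.13, 0.096, 0.16 and 0.015 for all genes. Because HLA-DRA starts at 0 and several other members near 0, these medians depend on the pseudocount and were 7.78, 5.44, 8.21 and 7.06 with 0.1 in place of 1. All 4 comparisons of a line share the same untreated libraries.

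The steps between treated groups were tested directly. From D3 to D14, 4 members fell in U87 (CIITA, CD74, HLA-DQA1 and HLA-DMB) and 10 in U251, where 2.05% and 3.29% of all genes were called lower. By the adjusted p alone all 10 were lower in both lines, and the share of all genes at that limit was not counted. From D14 to D28, 6 members rose in U87 and 10 in U251, beside 1.78% and 4.23% of all genes. In U87 the first step called 470 genes lower and the second 409 higher. With 1 D28 library left out, the count of the second step ran from 338 to 400. The members' median was -0.83 and then 1.11 in U87, and -2.38 and then 2.81 in U251, while the median of all genes stayed between -0.012 and 0.041. HLA-DPA1 in U87 lost its call in the second step without D28 replicate 3 (0.97), and HLA-DPB1 gained one without D14 replicate 2 (1.04) or without D28 replicate 2 (1.02), as did HLA-DQB1 without the latter (1.01).

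Withdrawal was read as D28WO against D28. In U87 0 members were called lower, beside 2.42% of all genes, and HLA-DRA alone had an adjusted p under 0.05 (-0.32 ± 0.094, limma, adjusted p = 0.0342), while 3 members had an unadjusted p under 0.05. CIITA was 0.14 ± 0.12 higher on the log2 scale (adjusted p = 0.488), although its 3 D28WO libraries all lay above its 3 D28 libraries. In U251 3 members were called lower (HLA-DQA1, HLA-DQB1 and HLA-DRB1), beside 8.14% of all genes. By the adjusted p alone, for which no share of all genes was counted, 7 of 10 were lower. The remaining 3 were CD74, HLA-DMA and CIITA (-0.36 ± 0.14, adjusted p = 0.0730). The median of the members was -0.18 in U87 and -0.74 in U251, beside 0.039 and -0.12 for all genes.

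**Figure D4:**
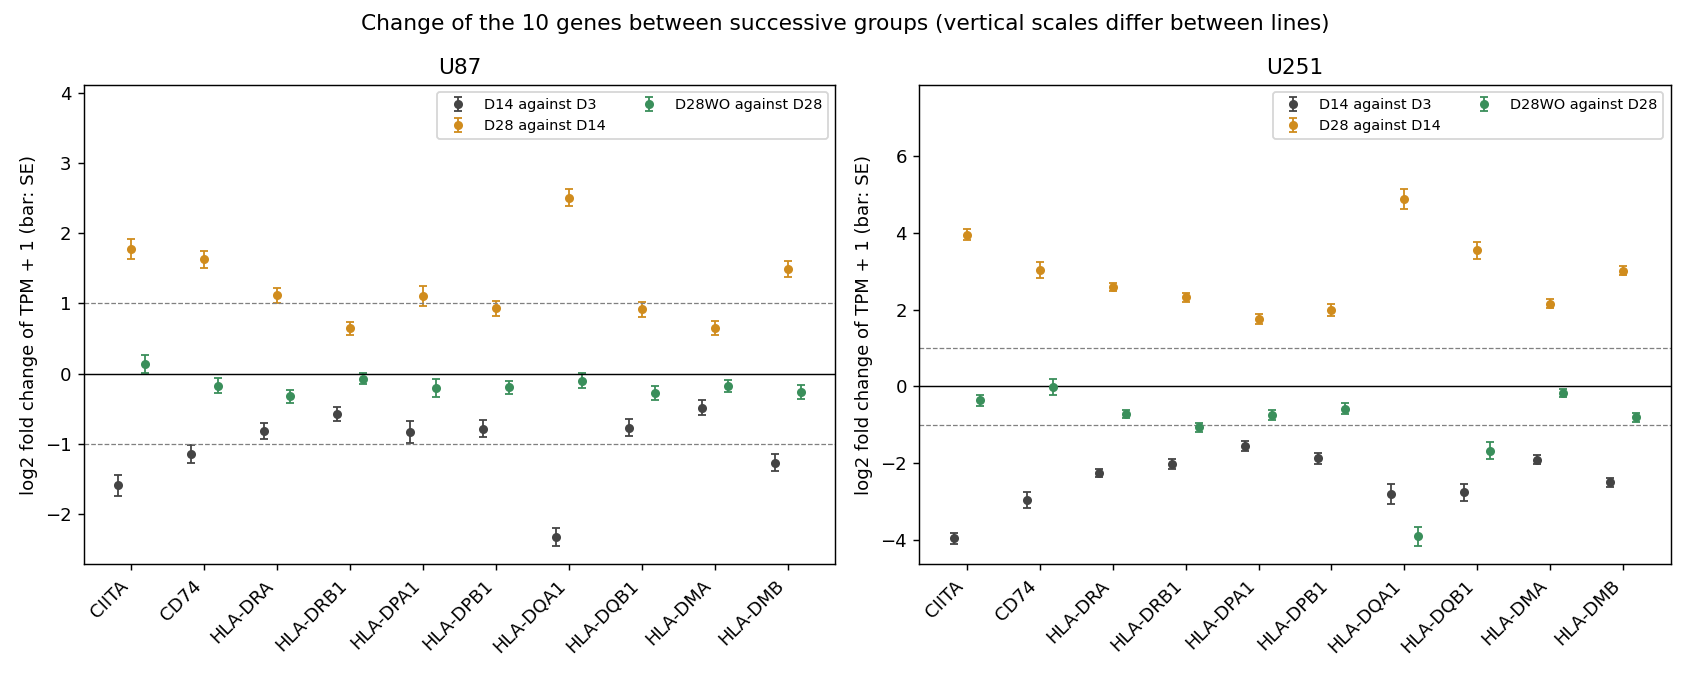
The log2 fold change of TPM + 1 with its SE is plotted for each of the 10 genes from D3 to D14, D14 to D28 and D28 to D28WO, with U87 on the left and U251 on the right on different scales. The D28WO points of U87 lie between -0.32 and 0.14, and those of U251 run down to -3.91 for HLA-DQA1.

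Set against D14, the group that had received the same days of IFN-γ, D28WO was higher for all 10 members in both lines by the adjusted p alone. The share of all genes at that limit was not counted. With the fold limit 4 members were called in U87 (CIITA, CD74, HLA-DQA1 and HLA-DMB) and 9 in U251, where 6.30% and 1.78% of all genes were called higher. HLA-DQA1 in U251 was the exception (0.98 ± 0.26, limma, adjusted p = 0.0120), and it passed the fold limit without D14 replicate 1 (1.02), D14 replicate 3 (1.03) or D28WO replicate 3 (1.27). HLA-DPA1 in U251 (1.01 ± 0.13) fell short of it without D14 replicate 3 (0.98) or D28WO replicate 2 (0.92). The members' median was 0.85 in U87 and 1.87 in U251, beside 0.058 and -0.078 for all genes. D14 and D28WO enter several of these comparisons, so the counts are not independent of each other.

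The order of mean levels at D28 began alike in both lines, with CD74, HLA-DPA1, HLA-DRA and HLA-DRB1, and differed below these. In untreated U87 cells it ran from CD74 (313 ± 42.8 TPM, SD) through HLA-DPA1, HLA-DRB1 and HLA-DRA to HLA-DMA, then HLA-DQB1, HLA-DPB1, CIITA, HLA-DQA1 and HLA-DMB (31.5 ± 3.44 TPM). Neighbours overlapped in their libraries among the first 4, between HLA-DMA and HLA-DQB1, and among the last 3. At D28 in U87 HLA-DQA1 had moved from rank 9 to rank 5, overlapping HLA-DRB1 above it. In U251 at D28 the order ran from CD74 (589 ± 37.3 TPM) and HLA-DPA1 (522 ± 34.4 TPM) through HLA-DRA, HLA-DRB1, HLA-DMA, HLA-DPB1, CIITA, HLA-DMB and HLA-DQB1 to HLA-DQA1 (34.1 ± 4.18 TPM), and only HLA-DRA and HLA-DRB1 overlapped. The DR, DP and DQ genes together summed to 858 ± 76.3 TPM in untreated U87 and 3.60 ± 0.210 TPM in untreated U251, and to 1926 ± 252 and 1436 ± 6.21 TPM at D28.

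Of 9 further class II genes listed, 5 were tested in U87 and 6 in U251. With limma 4 and 6 of these were called higher at D28, beside 6.77% and 11.9% of all genes. HLA-DOA and HLA-DOB form HLA-DO, an inhibitor of HLA-DM that is typical of B cells. HLA-DOA went from 17.8 ± 9.35 TPM (SD) in untreated U87 to 144 ± 6.27, 21.2 ± 13.4, 190.5 ± 40.4 and 127 ± 14.3 TPM in the 4 treated groups, and from 0.0830 ± 0.0166 to 134 ± 48.5, 6.22 ± 2.99, 124 ± 13.3 and 48.5 ± 6.51 TPM in U251. HLA-DOB reached 30.7 ± 4.47 TPM at D28 in U87, from 0.452 ± 0.782, and 26.6 ± 0.874 TPM in U251, from 0.445 ± 0.363. Both genes of HLA-DO were called higher at D28 in both lines. The B cell marker CD79A was at 0.584 ± 0.522 TPM in Untreated and 1.21 ± 0.642 TPM at D28 in U87, and at 1.92 ± 1.22 and 0.664 ± 0.658 TPM in U251, and the part of leukocyte RNA in these values was not tested.

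HLA-DRB5, a second DR beta gene, was high in untreated U87 (163 ± 17.7 TPM) and listed at 0 in untreated U251, where it reached 29.3 ± 1.34 TPM at D28. HLA-DRB6, a DR pseudogene, stayed at or below 0.564 TPM in the group means of U87 but reached 50.7 ± 1.77 TPM at D28 in U251. HLA-DQB2, a DQ-like gene, rose in both lines at D28 (2.71 ± 0.28 in U87 and 4.78 ± 0.27 in U251, limma, adjusted p = 5.2e-05 and 1.1e-08), and HLA-DQA2 rose in U251 (3.04, adjusted p = 2.6e-07). The pseudogene HLA-DPB2 was called higher in U87 at D3 and D28 (1.03 and 1.21) and was listed at 0 in U251. These genes are related in sequence to the members, and the counting could have split reads between them, so each of their values is uncertain. HLA-DRB3 and HLA-DRB4 were not analysed here.

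Of the genes that carry the IFN-γ signal to CIITA, IRF1 in U87 and JAK2 in U251 were called lower at D14 than at D3. JAK2, the kinase of the receptor, and IRF1, a factor that acts on the CIITA promoter, were called higher at D28 in each line with limma, while the receptor genes IFNGR1 and IFNGR2, the kinase JAK1 and the factor USF1 stayed under the fold limit in every comparison with Untreated. In U87 IRF1 was at 133 ± 2.78 TPM (SD) in Untreated and then 448 ± 3.34, 122 ± 17.1, 479.7 ± 51.7 and 509.6 ± 46.5 TPM. In U251 IRF1 was at 141 ± 3.90 TPM in Untreated and 589 ± 114, 300.3 ± 18.4, 603 ± 61.6 and 620.1 ± 38.7 TPM later, so at D14 it stayed above its untreated level (1.08 ± 0.11, adjusted p = 1.2e-05).

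From D3 to D14 the log2 fold change of IRF1 in U251 was -0.95 ± 0.11 (limma, adjusted p = 2.7e-05), beside -3.96 for CIITA. JAK2 fell by 1.98 ± 0.19 in the same step (adjusted p = 6.2e-06), from 59.5 ± 4.36 to 14.4 ± 1.27 TPM (SD). In U87 the step was -1.88 ± 0.12 for IRF1 (adjusted p = 2.2e-06), beside -1.59 for CIITA. From D28 to D28WO the log2 fold change of IRF1 was 0.088 ± 0.094 in U87 and 0.043 ± 0.11 in U251 (limma, adjusted p = 0.572 and 0.812).

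**Figure D5:**
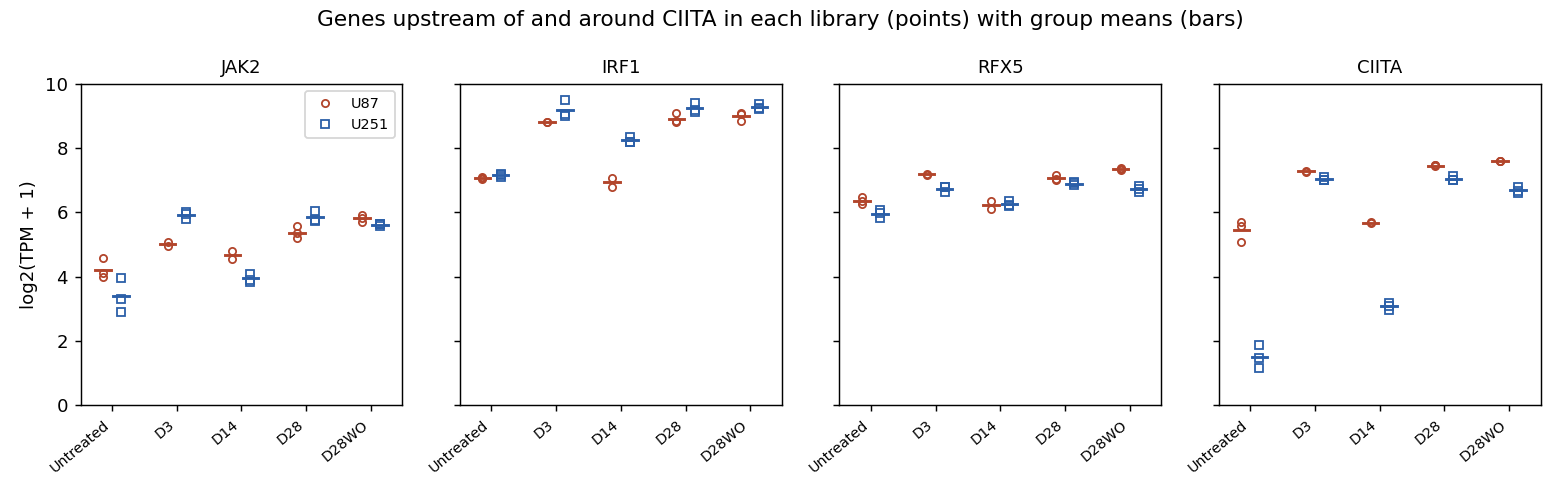
The vertical axis gives log2(TPM + 1) of JAK2, IRF1, RFX5 and CIITA for the 5 groups, with a point per library and a bar at the group mean, circles for U87 and squares for U251. At D14 in U251, IRF1 stands at 300.3 TPM, between its untreated and D3 levels, while JAK2 and CIITA fall to 14.4 and 7.48 TPM.

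The DNA-bound complex that recruits CIITA is made from 7 genes on the list. With limma 0 of them were called in any comparison with Untreated in either line, which is near the background, since 1.89% to 12.8% of all genes were called higher. Per comparison 1 to 5 of the 7 had an unadjusted p under 0.05. RFX5 had an adjusted p under 0.05 in 3 of 4 such comparisons in U87 and 4 of 4 in U251, and it was called higher at D28WO than at D14 in U87 (1.13, adjusted p = 7.4e-06). RFX5 was at 81.0 ± 6.20 TPM (SD) in untreated U87 and 162 ± 4.02 TPM at D28WO (0.99 ± 0.081), and at 61.1 ± 5.09 and 118 ± 4.45 TPM in untreated and D28 cells of U251 (0.94 ± 0.079). RFXANK, RFXAP, NFYA, NFYB, NFYC and CREB1 were present in untreated cells of both lines, from 15.7 ± 3.11 TPM for RFXAP in U87 to 110.0 ± 6.44 TPM for RFXANK in U251.

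Genes that act with CD74 or on finished class II molecules were listed too. In U87 1 of 4 partner genes tested was called higher at D3, D28 and D28WO, beside 5.85%, 6.77% and 12.8% of all genes. In U251 2 of 4 were at D3, D28 and D28WO and 1 at D14, beside 9.72%, 11.9%, 4.07% and 4.72%. The 1 in U87 was CTSS, the protease that trims CD74. It went there from 53.2 ± 2.14 TPM (SD) in Untreated to 191 ± 6.74, 53.1 ± 2.48, 159.7 ± 8.70 and 196 ± 10.7 TPM in the 4 treated groups. In U251 CTSS went from 24.0 ± 2.22 to 198 ± 13.1, 67.4 ± 5.61, 282 ± 4.53 and 136 ± 9.40 TPM. MIF, a ligand of surface CD74, was called higher in U251 at D3, D28 and D28WO (1.81, 1.57 and 1.33; limma, adjusted p = 0.0025, 0.0065 and 0.023) from a low level of 3.47 ± 2.22 TPM. In U87 MIF was lower than Untreated at all 4 points by the adjusted p alone, with the largest change at D28WO (-0.69, adjusted p = 1.3e-05). SPPL2A, which cleaves the CD74 stub, and CD44, its coreceptor, were not called, and CXCR4 was at most 0.689 TPM in every group mean. The ubiquitin ligases MARCHF1 and MARCHF8, which remove class II from the surface, were not called in any comparison.

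Of 5 genes that give T cells costimulatory or checkpoint signals, 3 were tested in each line. In U87 1 of the 3 was called higher at D3, D14, D28 and D28WO, beside 5.85%, 1.89%, 6.77% and 12.8% of all genes. In U251 the counts were 1, 0, 2 and 1, beside 9.72%, 4.72%, 11.9% and 4.07%. CD80 and CD86, which T cells need beside the class II signal, were at most 0.673 TPM in every group mean of both lines. CD40 was called higher at all 4 points in U87, with 38.9 ± 11.1 TPM (SD) in untreated cells and 177 ± 6.84 TPM at D28, and against Untreated in U251 at D28 alone, at 3.09 ± 1.04 TPM. CD274, the checkpoint ligand PD-L1, was called at D3, D28 and D28WO in U251 (2.17, 2.36 and 1.89; limma, adjusted p = 3.4e-08, 1.3e-08 and 2.0e-07). In U87 it was not called, with changes of 0.92, 0.97 and 0.999 at the same points, just under the limit of 1 (limma, adjusted p = 0.0061, 0.0016 and 4.5e-04). ICOSLG was not called in either line.

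Genes that lie beside the members in the genome were counted next. Of 12 neighbours tested, 2 were called higher in U87 at D28 (TAP1 and PSMB9, of the peptide supply of class I) and 4 in U251 (TAP1, TAP2, PSMB9 and SOCS1), with limma, beside 6.77% and 11.9% of all genes. DEXI, which overlaps CIITA by 13578 bases on the opposite strand, was called lower in U251 at D3 and D28 (-1.33 and -1.17, adjusted p = 9.5e-06 and 3.1e-05), the opposite direction from CIITA. SOCS1, farther along from CIITA, went from 2.82 ± 0.0296 TPM (SD) in untreated U251 to 45.8 ± 4.29 at D28 and 65.7 ± 1.94 TPM at D28WO. BRD2, at the edge of HLA-DMA, was not called in any of these comparisons, with 108 ± 4.90 TPM in untreated U87 and 113 ± 5.54 TPM at D28.

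The pattern of CIITA was compared with all genes of at least 5 TPM, by Pearson's r of log2(TPM + 1) over the libraries of a line. The most alike in U87 (13 libraries, 14069 genes) were FBXO6 (0.9944), TAP1 (0.9928), GBP5 (0.9918), HLA-F (0.9908) and APOL1 (0.9903). In U251 (15 libraries, 14380 genes) they were LGALS17A (0.9925), IL18BP (0.9918), WARS1 (0.9906), EPB41L4B (0.9906) and GBP5 (0.9898). Among the members, r with CIITA ran from 0.896 (HLA-DRA) to 0.980 (HLA-DQA1) in U87, and from 0.7725 (HLA-DQA1) to 0.988 (HLA-DMA) in U251. By Spearman's rho the order differed, with CD74 the most alike in U87 (0.797, against 0.764 for HLA-DQA1) and the least alike in U251 (0.696, against 0.893 for HLA-DQA1). All libraries of a line share their treatment steps, so these values describe the course and are no test.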

How the data were processed

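The authors deposited 1 table of TPM for each line. The submitters' processing notes name FastQC, Trim Galore, STAR, featureCounts, edgeR and the build GRCh38, and how TPM was computed is not given in the sources used here. Every library has the same total, so the tables hold no depth per library, for which the methods state only a minimum. The 2 U87 columns that share a name were not used. Genes whose mean TPM over a line's libraries reached 0.5 entered limma 3.58.1 in R 4.3.3 (lmFit, then eBayes with a trend), as log2(TPM + 1), with 5 groups in 1 fit, no covariate and 8 comparisons per line. The script was tested on simulated data. Genes named are the 10 members, all genes of lists of up to 8, those called against Untreated in longer lists, and the 5 most like CIITA, except some genes not reported here. Members and lists were chosen with earlier results of these data known. Alternatives were a pseudocount of 0.1, no filter, quantile normalization, scaling by median-ratio size factors, fitting just the compared groups, the replicate number as a block, and leaving out each library. Coordinates come from GENCODE annotation and promoters from RefSeq.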

Additional observations from a re-analysis of the deposited data

Results flagged for a closer look

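After withdrawal CIITA lay on opposite sides of its D28 level in the 2 lines. In U87 all 3 D28WO libraries (191, 191 and 192 TPM) lay above all 3 D28 libraries (175, 174 and 175 TPM), a log2 fold change of 0.14. In U251 all 3 D28WO libraries (109, 101 and 95.9 TPM) lay below all 3 D28 libraries (126, 126 and 139 TPM), a log2 fold change of -0.36. Neither change passed the threshold (limma, adjusted p = 0.488 in U87 and 0.0730 in U251), and the difference between the lines was not tested, since their tables were normalized separately.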

How the results depend on the processing

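The counts of members called stayed within 1.5 times the reported count, or at 0, in all 16 comparisons under every alternative run. With 1 library left out they ran in U87 from 3 to 5 at D3, 5 to 8 at D28 and 4 to 5 at D28WO against Untreated, and in U251 from 9 to 10 at D28WO against Untreated and 8 to 10 for D28WO against D14. Of the single-gene values under an alternative, 901 of 940 in U87 and 983 of 1000 in U251 kept their direction and side of the threshold.

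The values that changed sign were all uncalled, and the cause was not tested. With quantile normalization they were, at D14 against Untreated in U87, CD74 (0.055), HLA-DRA (0.0036) and HLA-DRB1 (0.12), for D28WO against D28 in U87 CD74 (0.14) and HLA-DRB1 (0.017), and at D14 in U251 HLA-DQA1 (-0.11). With median-ratio size factors they were HLA-DPA1 (-0.053), HLA-DPB1 (-0.038) and HLA-DQB1 (-0.14) at D14 in U87, and CD74 (0.082) for D28WO against D28 in U251. With 1 library left out, D14 against Untreated in U87 ran from -0.063 to 0.049 for HLA-DRB1 and from -0.040 to 0.12 for HLA-DQB1. D28WO against D28 ran from -0.12 to 0.022 for HLA-DRB1 and -0.19 to 0.018 for HLA-DQA1 in U87, and from -0.042 to 0.043 for CD74 in U251.

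The scaling moved member counts in U87 as well as counts over all genes. Median-ratio size factors gave 3 members at D3, 5 at D28 and 4 at D28WO against Untreated, where 4, 7 and 5 are reported, and quantile normalization gave 5, 6 and 5. Quantile normalization changed the genes called higher than Untreated in U87 from 1340 to 543 at D3, 433 to 118 at D14, 1552 to 663 at D28 and 2933 to 1332 at D28WO, and in U251 from 2301 to 1474 at D3, 1118 to 668 at D14 and 2808 to 1570 at D28. For D28WO in U251 it changed those lower than D28 from 1926 to 1037 and those higher than D14 from 422 to 636. The share of calls that were higher went in U87 from 93.8% to 66.1%, 90.0% to 55.4%, 91.7% to 63.0% and 85.8% to 52.1% at the 4 points, and in U251 from 68.1% to 49.3%, 82.0% to 62.1% and 78.0% to 52.3% at the first 3. It also went from 21.9% to 32.2% for D14 against D3 and 65.0% to 50.9% for D28WO against D14 in U87, and in U251 from 72.6% to 56.8% for D28 against D14, 12.1% to 37.8% for D28WO against D28 and 24.9% to 41.4% for D28WO against D14. Median-ratio factors gave 240 genes (78.4% higher) at D14 and 71.2% higher at D28WO in U87. U87 D14 also gave 248 genes with no filter and 18 (78.3% higher) with only the compared groups, which gave 714 at D3 and 173 lower for D14 against D3.

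With the replicate block the member counts were the same as without it, 4 in U87 and 10 in U251 at D3. Same-numbered libraries did not deviate together (correlations -0.058 to 0.0472 in U87 and -0.0375 to 0.048 in U251, none of 23 and 30 pairs over 0.1), so the numbers were not taken as pairs. The tables give no depth per library, so the low values of untreated U251 have no detection limit here.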
